A study of Mus musculus with 4 samples.

Results

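The matrix metalloproteinases are zinc enzymes that cut collagen and other proteins of the extracellular matrix, and the tissue inhibitors of metalloproteinases (TIMPs) are small secreted proteins that block their active site. Described here are 9 genes of these families, chosen by symbol: Mmp2, Mmp9, Mmp12, Mmp13, Mmp14 and Mmp19, and the inhibitors Timp1, Timp2 and Timp3. All 9 were found among the 17194 gene symbols measured, and all 9 passed the filter on low counts that left 15651 genes for testing. The 4 libraries were made from polyadenylated RNA of mouse macrophages cultured from marrow as primary cells, all of them treated for 2 days with RANKL, which drives such cells to become bone-resorbing osteoclasts. The labels give 2 siControl libraries and 2 siHells libraries, where the small interfering RNA targets Hells, a chromatin remodelling ATPase. The sources used here do not give mouse strain, age or sex, the sequence of either siRNA, or how many animals and cultures were used. P-values therefore measure the spread between these libraries, which may be technical.

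Osteoclasts dissolve bone mineral with acid and then digest the collagen matrix, mainly with cathepsin K, while metalloproteinases take part in matrix cleavage, in migration and in the release of factors from bone. Metalloproteinases are made as inactive precursors. MMP14 sits in the cell membrane and activates the MMP2 precursor in a complex that TIMP2 bridges, and MMP9 leaves the cell as a precursor that TIMP1 can bind.

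Total counts ran from 48873635 to 55642819 per library. Levels are counts relative to library size (CPM), after scaling between libraries. Hells itself was at 29.7 ± 0.459 CPM (SD, n = 2) with the control siRNA and at 14.9 ± 0.390 CPM with the Hells siRNA (adjusted p = 5.96e-09). All 11 macrophage markers checked were measured, with summed levels of 7244 and 7261 CPM in siControl and 15740 and 15290 CPM in siHells. Of these 10 rose and 1 fell, where 29.0% of all tested genes rose and 29.5% fell. The 10 osteoclast markers other than Mmp9 all fell, from sums of 5227 and 5280 CPM to 1099 and 1068 CPM. Of 15 stromal markers 13 were measured, without Lum and Bglap, and their sums were 1067 and 1094 CPM against 1892 and 1864 CPM, mostly from Col1a1, Col1a2 and Acta2. Among these 13 markers 8 rose and 2 fell.

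Of the 6 Mmp genes 4 fell in siHells and 2 rose, and all 3 Timp genes fell. Together 7 of the 9 genes were lower and 2 higher, where 29.5% of all tested genes were lower, 29.0% higher and 58.5% changed in either direction. A fall of at least 2-fold was measured in 4 of the 9 genes, Mmp9, Mmp12, Mmp13 and Mmp14, against 5.52% of all tested genes, and a rise of at least 2-fold in 1, Mmp19, against 6.75%. The 2 libraries of each group did not overlap in any of the 9 genes, as in 78.5% of all tested genes. The median log2 fold change was -1.89 over the 6 Mmp genes and -0.31 over the 3 Timp genes, beside -0.0043 over all tested genes. In bulk RNA, fewer cells that express a gene and less of its RNA per cell cannot be told apart.

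**Figure D1:**
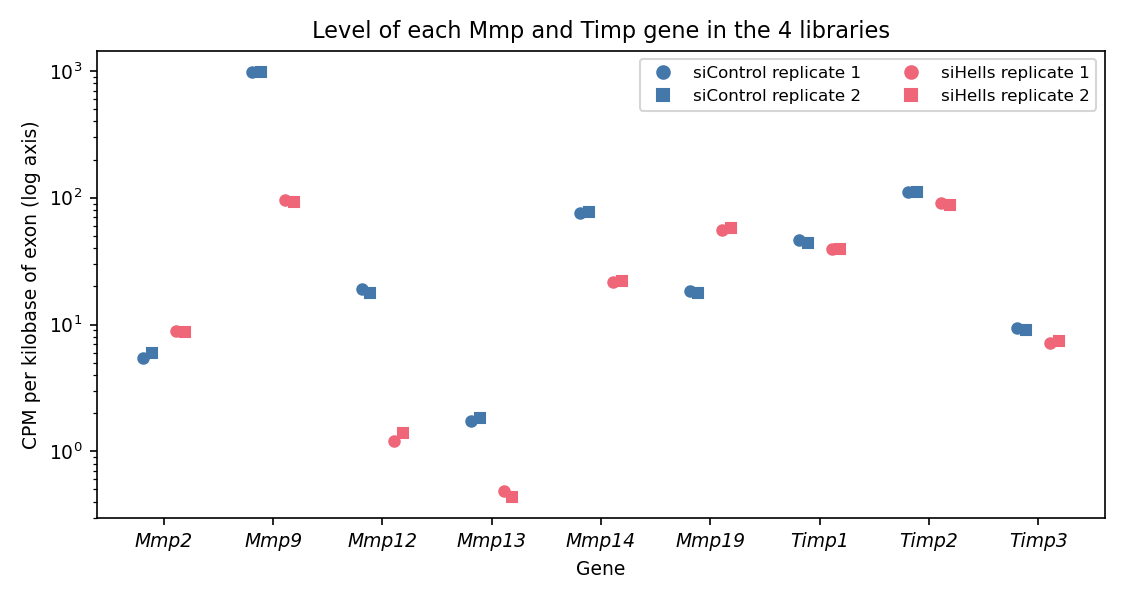
Level of each gene in the 4 libraries, in CPM per kilobase of annotated exon on a log axis; circles are replicate 1 and squares replicate 2, blue is siControl and red siHells. The groups are apart for every gene, widely for Mmp9 and Mmp12 and narrowly for Timp1, where siControl lay at 46.3 and 44 and siHells at 39.3 and 39.5.

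Mmp9, which encodes gelatinase B and is one of the most abundant secreted proteases of osteoclasts, was counted 190169 and 173638 times in the siControl pair and 18335 and 17707 times in the siHells pair. In normalised terms these were 3460 and 3470 CPM against 338 and 330 CPM. Both siControl libraries were thus far above both siHells libraries, and libraries of a group lay close together. The change was -3.37 on the log2 scale (SE 0.027, adjusted p = 9.55e-20), and 44 of 15651 tested genes had a lower fold change. Per kilobase of exon, Mmp9 ranked 20 and 19 among 15652 genes with the control siRNA and 432 and 440 with the Hells siRNA. Mmp9 maps to chromosome 2, 164940780 to 164955850 of GRCm38, plus strand.

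Mmp12, the macrophage elastase, fell furthest of the 9 genes. Its siControl counts were 7543 and 6475 and its siHells counts 473 and 539, or 137 and 129 CPM against 8.73 and 10.1 CPM. The fall was 14.2-fold (log2 fold change -3.83, SE 0.064, adjusted p = 3.79e-16), and 21 tested genes had a lower fold change. Mmp12 lies on chromosome 9 at 7344381 to 7369499, plus strand, and shares 157 bases of exon with Mmp1b on the opposite strand, which was not analysed here.

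Mmp13, collagenase 3, is best known from osteoblasts and cartilage, and was the least abundant of the 9 genes. Its siControl counts were 255 and 246 and its siHells counts 70 and 63, which is 4.64 and 4.92 CPM against 1.29 and 1.17 CPM. The fall was 3.87-fold, and its error was the widest among the 9 genes (log2 fold change -1.95, SE 0.18, adjusted p = 1.92e-07). Among the stromal markers, the transcription factors of the osteoblast lineage were Runx2, which fell 1.34-fold (adjusted p = 0.00379), and Sp7, at 1.39 ± 0.523 CPM in siControl and 1.08 ± 0.0184 CPM in siHells (SD, n = 2; adjusted p = 0.313). Col3a1 also fell, while 8 of the 13 measured markers rose and their summed level was 1.74 times as high in siHells. The part of such cells in the Mmp13 result was not tested. Mmp13 lies on chromosome 9 at 7272514 to 7283331, plus strand.

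Mmp14, the membrane-bound metalloproteinase that cuts fibrillar collagen and activates MMP2, was the second most abundant Mmp gene in siControl. The siControl libraries held 25034 and 23171 counts and the siHells libraries 6931 and 7039, or 455.5 and 463 CPM against 128 and 131 CPM. Both siHells libraries lay below both siControl libraries by 3.54-fold (log2 fold change -1.83, SE 0.033, adjusted p = 7.94e-16). Mmp14 lies on chromosome 14 at 54431612 to 54445364, plus strand.

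Mmp19, a secreted metalloproteinase that cuts basement membrane proteins, moved against these. The siControl libraries held 3586 and 3125 counts and the siHells libraries 10616 and 10846, or 65.2 and 62.5 CPM against 196 and 202 CPM. Both siHells libraries were above both siControl libraries, by 3.12-fold (log2 fold change 1.64, SE 0.040, adjusted p = 2.35e-14). Its rank by level per kilobase went from 2729 and 2844 to 817 and 783. Mmp19 maps to chromosome 10, 128790910 to 128800824, plus strand, and shares 789 bases of exon with Tmem198b on the opposite strand. Tmem198b went from 688 and 571 counts to 1080 and 986 (log2 fold change 0.68, adjusted p = 5.38e-06), and without a stated strand setting reads from the shared stretch cannot be assigned.

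Mmp2, gelatinase A, whose precursor MMP14 activates, rose by a smaller factor. The siControl libraries held 1017 and 1001 counts and the siHells libraries 1615 and 1570, or 18.5 and 20 CPM against 29.8 and 29.3 CPM. The log2 fold change was 0.62 (SE 0.067, adjusted p = 1.16e-06), a 1.53-fold rise. MMP2 is known as a product of fibroblasts and other stromal cells. Beside its rise, 8 of the 13 stromal markers measured rose and 2 fell, with Col1a2 1.88-fold and Acta2 1.98-fold higher, and their part in the result was not tested. Mmp2 lies on chromosome 8 at 92827291 to 92853420, plus strand.

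The 3 inhibitors changed less than any of the 6 Mmp genes. Timp2, which both inhibits metalloproteinases and bridges MMP14 to the MMP2 precursor, was the most abundant, with siControl counts of 23716 and 21538 and siHells counts of 19270 and 18331. These were 431.5 and 430.4 CPM against 355.5 and 342 CPM, a 1.24-fold fall (log2 fold change -0.31, SE 0.031, adjusted p = 4.78e-07). Timp2 lies on chromosome 11 at 118301069 to 118355740, minus strand, with Cep295nl inside it on the same strand and no shared exon.

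Timp3, the inhibitor that binds to the matrix and also blocks several ADAM proteases, had siControl counts of 4210 and 3681 and siHells counts of 3166 and 3216, or 76.6 and 73.6 CPM against 58.4 and 59.9 CPM. Every siControl value was above every siHells value, and the fall was 1.27-fold (log2 fold change -0.34, SE 0.046, adjusted p = 1.00e-05). Timp3 lies on chromosome 10 at 86300372 to 86349506, plus strand, within Syn3 on the opposite strand, with which it shares 1733 bases of annotated exon. Syn3 was not analysed here.

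Timp1, the inhibitor that binds the MMP9 precursor, had the smallest change. Its siControl counts were 2260 and 1955 and its siHells counts 1893 and 1884, or 41.1 and 39.1 CPM against 34.9 and 35.1 CPM. The groups did not overlap, and the fall was 1.15-fold (log2 fold change -0.20, SE 0.055, adjusted p = 0.00674). Without siControl replicate 1 the log2 fold change was -0.17, and Timp1 was not called. That fit held 1 siControl library, so whether the call rests on the replicate left out cannot be told. Timp1 lies on chromosome X at 20870166 to 20874735, plus strand, inside Syn1 on the opposite strand with no shared exon.

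**Figure D2:**
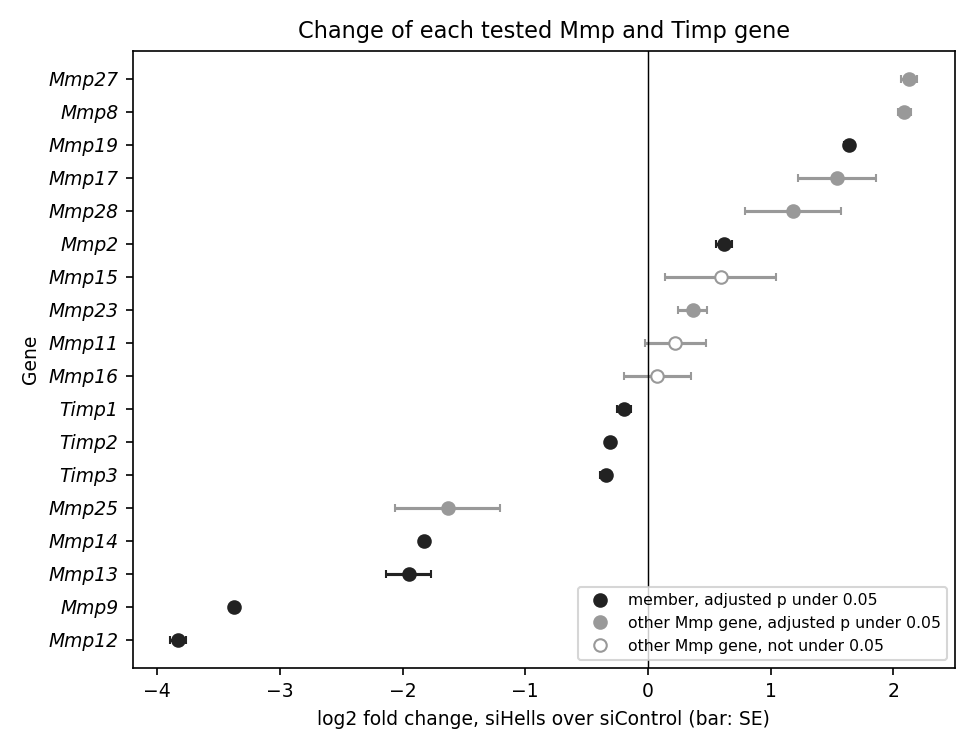
Log2 fold change of each tested Mmp and Timp gene, siHells over siControl, with its standard error as a bar; black points are the 9 genes described and grey points the other Mmp genes, open where the adjusted p was 0.05 or more. Points run from Mmp12 at -3.83 to Mmp27 at 2.13, and the 3 Timp genes lie just below 0.

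Levels of different genes were compared per kilobase of annotated exon. In siControl the order was Mmp9 (979 ± 2.01 CPM per kilobase, SD, n = 2), Timp2 (111 ± 0.194), Mmp14 (77.1 ± 0.900), Timp1 (45.2 ± 1.63), Mmp12 (18.4 ± 0.766), Mmp19 (18.1 ± 0.559), Timp3 (9.22 ± 0.264), Mmp2 (5.71 ± 0.315) and Mmp13 (1.79 ± 0.0732). Mmp12 and Mmp19 were the pair of neighbours whose libraries overlapped. In siHells Mmp9 was still first at 94.4 ± 1.64, closely followed by Timp2 at 89.5 ± 2.51, then Mmp19 (56.3 ± 1.26), Timp1 (39.4 ± 0.154), Mmp14 (21.7 ± 0.396), Mmp2 (8.76 ± 0.111), Timp3 (7.27 ± 0.133), Mmp12 (1.30 ± 0.129) and Mmp13 (0.461 ± 0.0310). Mmp19 thus stood below Mmp14 in siControl and above it in siHells, and no neighbours overlapped in siHells. The length used moves such levels: with the longest annotated transcript in place of all exons, Mmp14 was 1.84 times, Timp3 1.72 times and Mmp12 1.62 times as high. Mmp14 (142 ± 1.66) then stood above Timp2 (116 ± 0.204) in siControl, and Mmp12 (29.8 ± 1.24) above Mmp19 (18.8 ± 0.581). In siHells Timp3 (12.5 ± 0.230) then stood above Mmp2 (9.59 ± 0.122), and Mmp14 (40.0 ± 0.728) and Timp1 (39.7 ± 0.155) overlapped.

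The make-up of Mmp transcript differed accordingly. Mmp9 held 89.0% of the summed level of the 6 Mmp genes in each siControl library and 52.2% and 51.0% in the siHells libraries. The share of Mmp19 went from 1.68% and 1.61% to 30.3% and 31.3%, and that of Mmp14 was 6.96% and 7.05% against 11.7% and 12.0%. Mmp14 therefore took a larger share in siHells although its own level fell. Timp2 held 66.5% and 67.6% of the summed level of the 3 inhibitors in siControl and 66.2% and 65.2% in siHells.

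**Figure D3:**
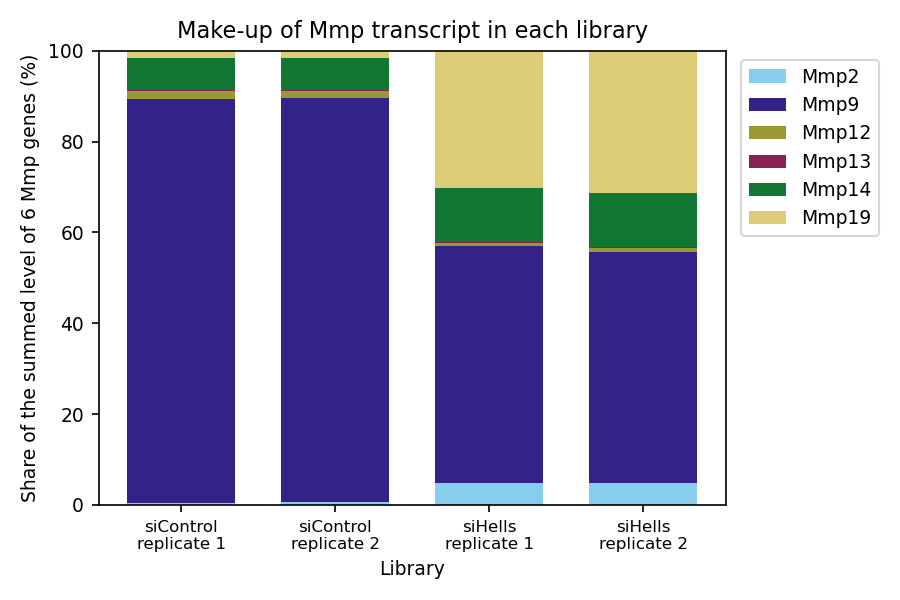
Share of each gene in the summed level of the 6 Mmp genes, in percent, with 1 stacked bar for each library; levels are CPM per kilobase of exon. Mmp9 fills 89.0% of both siControl bars and 52.2% and 51.0% of the siHells bars, where Mmp19 takes 30.3% and 31.3%.

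The summed level of the 6 Mmp genes was 1099 and 1101 CPM per kilobase in siControl and 183 in each siHells library, a 6.01-fold difference. For the 3 inhibitors the sums were 166.5 and 163.5 against 137.7 and 134.6 CPM per kilobase, a 1.21-fold difference. The ratio of Mmp to Timp transcript was 6.60 and 6.74 in siControl and 1.33 and 1.36 in siHells, so it was 4.96 times as high in siControl. Mmp9 carried most of this: without it, the Mmp sum was 1.37-fold lower in siHells and the ratio was 0.727 and 0.740 in siControl against 0.635 and 0.667 in siHells. Each of these quantities separated the groups, and an exact two-sided permutation test over 2 against 2 libraries gave p = 0.333, the smallest it can give. The values without Mmp9 use the length of all exons and depend on it. With the longest transcript Mmp14 alone was 142 CPM per kilobase in siControl and 40.0 in siHells, 1.84 times as high as with all exons.

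Pairs that are known to act together shifted in different directions. Mmp9 over Timp1 was 21.1 and 22.3 per kilobase in siControl and 2.43 and 2.36 in siHells. Mmp14 over Timp2 was 0.690 and 0.703 in siControl and 0.235 and 0.251 in siHells. Mmp2 over Mmp14, the enzyme over its activator, rose instead, from 0.0718 and 0.0764 to 0.412 and 0.394. Mmp2 over Timp2 was 0.0496 and 0.0537 in siControl and 0.0969 and 0.0990 in siHells. The groups were apart in all 4 ratios, and p = 0.333 in the same exact permutation test. Shares and ratios between genes depend on the gene length used. A ratio of single genes is scaled by the same factor in every library. Shares and summed levels are not, because the factor differs between genes. With the longest transcript Mmp14, which fell, was 1.84 times as high and Mmp19, which rose, 1.04 times.

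Beyond the 9 genes, 9 other Mmp genes were tested, of which 5 rose, 1 fell and 3 did not pass. Over all tested genes 29.0% rose, 29.5% fell and 58.5% changed in either direction. Mmp8, the collagenase best known from neutrophils, went from 1324 and 1153 counts to 5389 and 5429 (log2 fold change 2.09, SE 0.050, adjusted p = 1.93e-14). Mmp27, a little-studied member, went from 581 and 531 counts to 2518 and 2481 (log2 fold change 2.13, SE 0.066, adjusted p = 3.96e-13). In siHells Mmp8 reached 41.4 ± 0.517 CPM per kilobase, which is above Mmp14 with either gene length. The neutrophil markers other than Mmp8 had summed levels of 534 and 541 CPM in siControl and 466 and 446.5 CPM in siHells, with 2 of 9 measured markers higher and 5 lower. The count that was lower was 3 under the DESeq2 Wald test with all 4 libraries, and it was also smaller in some fits that left out a library. Ly6g was not analysed here, and the part of these cells in the Mmp8 result was not tested.

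The remaining Mmp genes were scarce. Mmp17 (29 and 29 counts against 68 and 106), Mmp23 (287 and 254 against 362 and 353) and Mmp28 (19 and 13 against 32 and 43) rose, with log2 fold changes of 1.54, 0.36 and 1.18 (adjusted p = 0.000641, 0.0166 and 0.0169). Mmp25, a membrane-anchored enzyme of neutrophils, fell, with 51 and 28 counts against 15 and 11 (log2 fold change -1.63, adjusted p = 0.00403). Without siControl replicate 1 the adjusted p of Mmp25 was 0.0759 and that of Mmp23 was 0.0555. Without siControl replicate 2 they were 0.0647 for Mmp23 and 0.0975 for Mmp28, without siHells replicate 1 0.0528 for Mmp23, and without siHells replicate 2 0.114 for Mmp28. Mmp11, Mmp15 and Mmp16 had adjusted p = 0.466, 0.278 and 0.829. Mmp24 had 1 or 2 counts per library and was not tested, and Mmp1a, Mmp1b, Mmp3, Mmp7, Mmp10, Mmp20, Mmp21 and Timp4 were not analysed here.

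Mmp12, Mmp13, Mmp8 and Mmp27 belong to the cluster of Mmp genes on chromosome 9, where 10 Mmp genes lie within 427.1 kilobases, from Mmp13 at 7272514 to Mmp7 at 7699585 of GRCm38. Along the plus strand Mmp13 and then Mmp12 come first, and both fell. Further along, Mmp8 (7558456 to 7568485) and Mmp27 (7571396 to 7581885) are direct neighbours, and they rose 4.25-fold and 4.38-fold. The pair at the Mmp13 end was thus lower and the neighbouring pair further along higher, with 4 of the cluster's 10 Mmp genes measured.

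**Figure D4:**
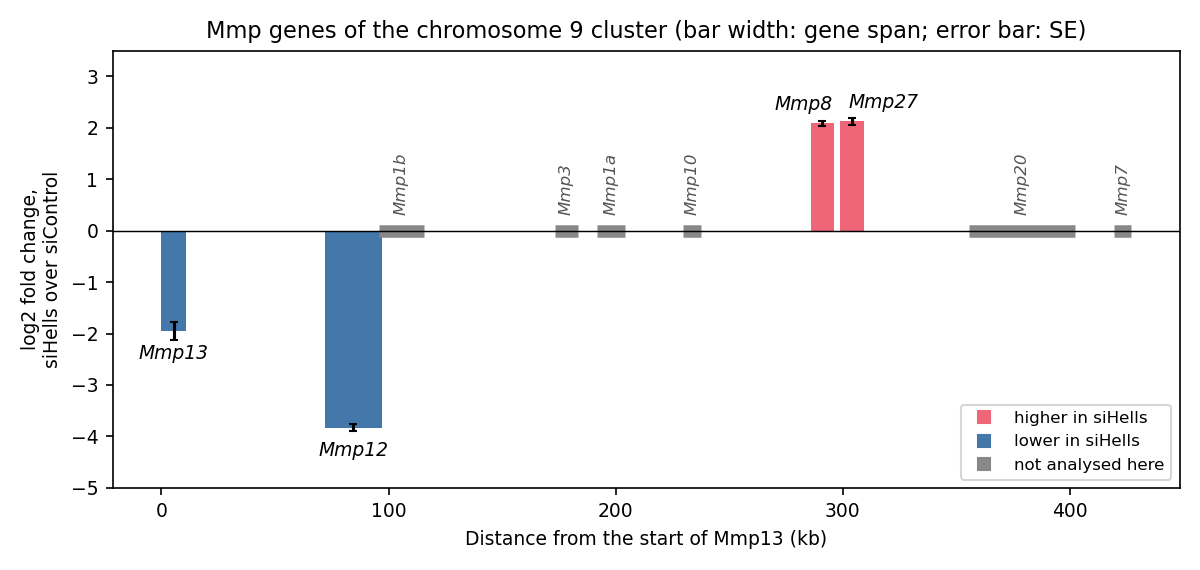
Log2 fold change of the measured Mmp genes of the chromosome 9 cluster (vertical axis, with the standard error) against distance from the start of Mmp13 in kilobases; each bar is as wide as the gene, and grey blocks mark Mmp genes not analysed here. Mmp13 and Mmp12 at the left point down, at -1.95 and -3.83, and the neighbours Mmp8 and Mmp27 point up, at 2.09 and 2.13.

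The bases before the start sites of these 4 genes are shown because the genes share a cluster and differ in direction. Each stretch is the 250 bases before the most upstream RefSeq start of GRCm38.p6 on the plus strand, and capitals mark any match to the motifs searched on both strands. These were AP-1 (TGANTCA, bound by Fos and Jun proteins), the TATA box (TATAAA), NFAT (TGGAAA) and PU.1 (GAGGAAGT).
Mmp13, chr9:7272264-7272513: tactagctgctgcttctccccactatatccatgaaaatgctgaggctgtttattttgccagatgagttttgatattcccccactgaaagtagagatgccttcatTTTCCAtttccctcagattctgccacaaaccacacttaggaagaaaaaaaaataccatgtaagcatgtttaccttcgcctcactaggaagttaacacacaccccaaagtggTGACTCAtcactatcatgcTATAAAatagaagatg
Mmp12, chr9:7344147-7344396: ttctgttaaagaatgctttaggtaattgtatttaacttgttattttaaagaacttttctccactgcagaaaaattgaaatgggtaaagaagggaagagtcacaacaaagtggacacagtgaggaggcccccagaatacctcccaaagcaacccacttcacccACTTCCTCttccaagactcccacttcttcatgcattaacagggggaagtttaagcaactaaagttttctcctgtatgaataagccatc
Mmp8, chr9:7558179-7558428: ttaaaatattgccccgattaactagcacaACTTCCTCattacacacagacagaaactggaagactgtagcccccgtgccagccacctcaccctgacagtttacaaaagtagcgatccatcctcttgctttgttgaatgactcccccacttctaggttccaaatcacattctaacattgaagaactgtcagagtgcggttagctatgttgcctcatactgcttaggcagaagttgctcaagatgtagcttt
Mmp27, chr9:7571146-7571395: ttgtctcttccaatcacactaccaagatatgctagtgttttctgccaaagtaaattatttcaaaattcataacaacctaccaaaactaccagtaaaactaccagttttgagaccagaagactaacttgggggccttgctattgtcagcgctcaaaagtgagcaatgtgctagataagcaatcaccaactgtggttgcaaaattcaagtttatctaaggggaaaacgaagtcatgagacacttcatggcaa

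Mmp13 held an AP-1 match beginning 35 bases before the start, a TATA box match beginning 16 bases before it and an NFAT match on the minus strand. Mmp12 and Mmp8, which moved in opposite directions, each held 1 PU.1 match, on the minus strand, beginning 88 and 221 bases before the start. Mmp27 held none of the 4 motifs in this window. Over all 32851 RefSeq start sites with the same length of sequence, 6.75% held the AP-1 motif, 12.4% the TATA box, 18.6% the NFAT motif and 2.44% the PU.1 motif. A match is a run of letters and shows no binding.

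RefSeq start sites were matched for 6 of the 9 genes, and not for Mmp2, Mmp9 and Mmp19. Mmp14 and the 3 Timp genes held no match to any of the 4 motifs. They differed from the cluster genes in base composition. The G and C share of the 250 bases was 55.2% for Mmp14, 54.4% for Timp1, 68.0% for Timp2 and 65.6% for Timp3, against 40.0% for Mmp12, 40.4% for Mmp13, 44.8% for Mmp8 and 38.8% for Mmp27, with a median of 52.4% over all start sites. CpG pairs, the sites of most DNA methylation in mammals, numbered 10 in Mmp14, 6 in Timp1, 21 in Timp2 and 18 in Timp3. There were 0 in Mmp12, 1 in Mmp13, 4 in Mmp8 and 2 in Mmp27. The median over all start sites was 6, so Timp1 lay at the median. The sequence before the RefSeq start of Mmp14 and that of Timp2, the richest in CpG, are given as examples, on the strand of each gene. The Timp2 stretch lies wholly inside the GENCODE gene, which begins at 118355740 on the minus strand. It is therefore not upstream of that start. The stretches of Timp3 and Mmp12 also run past their GENCODE starts, at 86300372 and 7344381.
Mmp14, chr14:54431348-54431597, plus strand: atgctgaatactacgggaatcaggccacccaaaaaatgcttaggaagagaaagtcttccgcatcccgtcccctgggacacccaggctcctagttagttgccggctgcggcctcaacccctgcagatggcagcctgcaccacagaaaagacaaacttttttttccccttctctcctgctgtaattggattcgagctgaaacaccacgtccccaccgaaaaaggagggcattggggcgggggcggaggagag
Timp2, chr11:118355412-118355661, minus strand: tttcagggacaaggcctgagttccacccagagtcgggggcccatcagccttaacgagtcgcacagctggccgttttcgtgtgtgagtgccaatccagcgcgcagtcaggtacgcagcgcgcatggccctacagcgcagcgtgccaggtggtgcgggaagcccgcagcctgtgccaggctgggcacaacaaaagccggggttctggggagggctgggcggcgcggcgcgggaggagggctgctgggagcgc

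Genes whose products activate, dock, restrain or clear metalloproteinases were split. Of 24 tested 9 rose, 9 fell and 6 did not pass, with a median log2 fold change of 0.05. Over all tested genes 29.0% rose and 29.5% fell, and the median was -0.0043. Cd44, a hyaluronan receptor to which MMP9 can bind at the cell surface, fell 1.82-fold, from 296 to 163 CPM, and Itgb3, the beta chain of the osteoclast vitronectin receptor, fell 3.61-fold. Plau, the urokinase that starts the plasmin cascade able to activate Mmp precursors, fell 2.11-fold. Lrp1, an endocytic receptor that clears proteases and their inhibitors, rose 1.65-fold, and Thbs1, a matrix glycoprotein, 1.58-fold. Furin, the convertase that activates MMP14, rose 1.17-fold (log2 fold change 0.22, adjusted p = 9.75e-05), and Bsg, an inducer of metalloproteinases, 1.08-fold (adjusted p = 0.0156). Reck, a membrane-anchored inhibitor, had 0.745 ± 0.206 CPM in siControl and 0.946 ± 0.0331 CPM in siHells (SD, n = 2; adjusted p = 0.369).

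ADAM and ADAMTS genes encode a related family, in which TIMP3 inhibits some members. The list was made by family, and some of its genes encode proteins that are no active protease or that TIMP3 does not block. Of 21 tested 13 rose and 3 fell, with a median log2 fold change of 0.59, where 29.0% of all tested genes rose and 29.5% fell. With library totals in place of TMM scaling the count that fell was 6, and 13 rose. Adamts1, which cuts proteoglycans, rose 6.62-fold, from 4.71 to 31.2 CPM (log2 fold change 2.73, SE 0.087, adjusted p = 5.55e-13). Adam12 rose from 2.44 to 9.80 CPM, Adam19 2.66-fold, Adam9 2.19-fold and Adam15 1.95-fold. The 3 that fell were Adamts7, Adamts4 and Adamts13, with log2 fold changes of -0.72, -1.06 and -1.22. Adam17, the enzyme that releases tumour necrosis factor, was at 360 CPM in siControl and 351 CPM in siHells (adjusted p = 0.367).

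Among cathepsins and other enzymes of matrix breakdown, 6 of 14 tested fell and 5 rose, with a median log2 fold change of -0.11, beside 29.5% and 29.0% of all tested genes. Ctsk, the collagen-cutting cathepsin of osteoclasts, fell 7.04-fold and Acp5, the tartrate-resistant acid phosphatase, 4.99-fold, both less than Mmp9 (10.4-fold) and more than Mmp14 (3.54-fold). The 5 that rose were the lysosomal cathepsins Ctsh (2.20-fold), Ctsb (1.72-fold), Ctsl (1.71-fold), Ctss (1.55-fold) and Ctsd (1.31-fold). Ctsz, another lysosomal cathepsin, fell 1.18-fold.

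Transcription factors known to act on Mmp and Timp promoters were split, 13 of 28 rising and 12 falling, with a median log2 fold change of -0.08. Over all tested genes 58.5% changed in either direction. AP-1 genes went both ways. Fosl2 fell 2.72-fold, Junb 1.93-fold and Fos 1.83-fold, while Fosl1 rose 3.23-fold, Batf 2.01-fold and Jun 1.29-fold. Fosl1 and Batf were scarce, at 1.19 and 5.56 CPM in siControl, beside 432 CPM for Fosl2. Nfatc1, the master regulator of osteoclast formation, fell 1.93-fold and its relative Nfatc2 rose 2.62-fold. Stat3 rose 1.65-fold. The others that fell had log2 fold changes of -1.18 (Atf3), -0.59 (Mitf), -0.58 (Relb), -0.54 (Ets2), -0.42 (Runx2), -0.38 (Spi1), -0.37 (Nfkb2) and -0.28 (Nr3c1), the last encoding the glucocorticoid receptor.

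Matrix proteins that metalloproteinases cut rose more often than they fell, 16 against 2 of 20 tested, with a median log2 fold change of 0.83, where 29.0% of all tested genes rose and 29.5% fell. Col4a1, of basement membrane collagen, rose 2.93-fold, from 42.4 to 124 CPM, Col5a2 1.95-fold, Col1a2 1.88-fold and Col1a1 1.78-fold. The 2 that fell were Spp1, osteopontin, by 2.56-fold, and Col3a1 by 1.32-fold. Col1a1, Col1a2 and Col3a1 are also on the stromal marker list, so these counts are not independent of it.

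**Figure D5:**
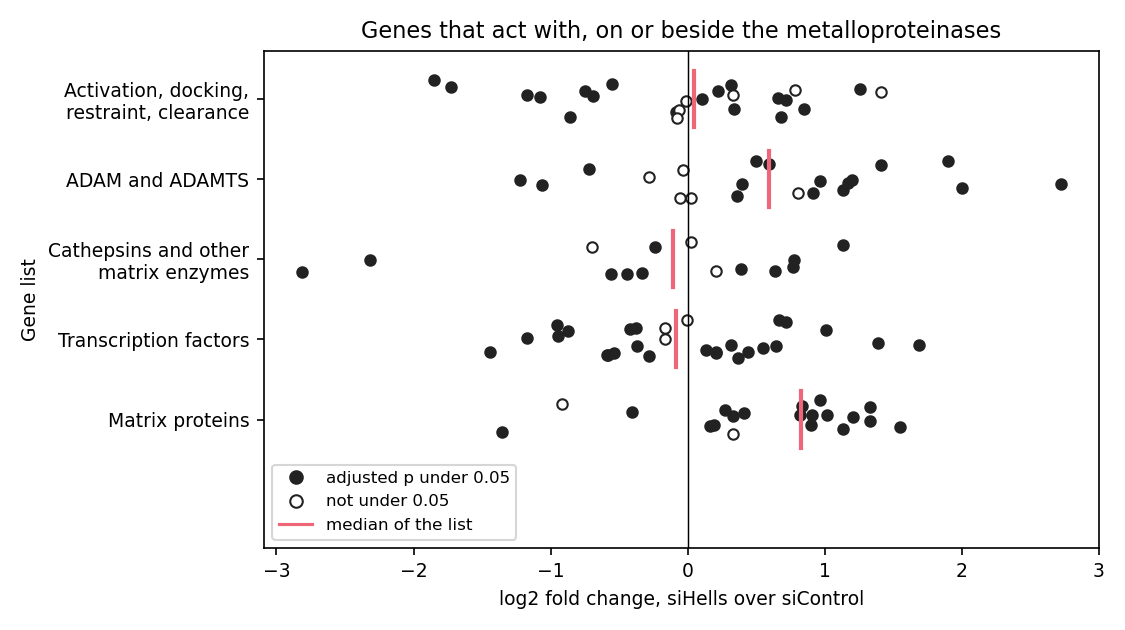
Log2 fold change, siHells over siControl, of every tested gene of 5 lists; each point is a gene, filled where the adjusted p was under 0.05, points are spread vertically only to be seen, and the red line is the median of the list. The medians lie near 0 for partners (0.05), transcription factors (-0.08) and cathepsins (-0.11), and at 0.59 for ADAM and ADAMTS genes and 0.83 for matrix proteins.

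Over the 4 libraries, the abundant genes whose log2 CPM profile lay nearest to that of Mmp9 were Cd74, Car2 and Slc5a3, at Euclidean distances of 0.112, 0.148 and 0.187 among 9275 candidates. For Mmp14 they were Slc9b2 (0.0274), Clec7a (0.0395) and Itgb3 (0.0471), and for Mmp12 Itga2 (0.216), Scin (0.222) and Cd200 (0.274). Mmp13 lay nearest to Gsap (0.0732), Traf1 (0.0923) and Slc45a3 (0.102). For the genes that rose, the nearest were Zfp36l1 (0.0386), Tigd2 (0.0413) and Marco (0.0535) to Mmp19, and Klhl18 (0.0186), Peak1 (0.0293) and Sdf4 (0.0303) to Mmp2. The nearest genes to Timp1, Timp2 and Timp3 were Ciao2b, Pld3 and Mmadhc, at 0.0102, 0.00829 and 0.0165. With 4 libraries in 2 groups, such nearness mostly reflects a like fold change.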

How the data were processed

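For the 4 libraries the authors deposited raw read counts by gene symbol. HISAT2 2.1.0, StringTie 2.1.3b, Trimmomatic 0.38, FastQC, edgeR and build mm10 are named, without roles, per the submitters' processing notes. Per the labels' protocols, both a SMARTer and a TruSeq Stranded kit are named, so strand is uncertain. The lowest count was 1: genes with 0 reads in a library were not analysed here.

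Genes were filtered with filterByExpr (minimum count 10, minimum total 15), scaled by TMM and tested with the edgeR 4.0.16 quasi-likelihood test (robust, group as the only term, 2 residual degrees of freedom; R 4.3.3), with Benjamini-Hochberg adjustment over 15651 genes and a threshold of 0.05. Standard errors are the log2 fold change over the root of F. Exon lengths and positions are from GENCODE M21 (GRCm38). The procedure was tested on simulated counts in which few genes changed, in random directions. In these data 58.5% of tested genes were called, so the simulation does not bear on the scaling here. Within groups, counts differed beyond sampling noise (chi-square per gene 3.45 and 6.26).

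The members and lists were chosen with earlier results of these data known. Genes named are Hells, all Mmp and Timp genes, up to 5 members of each list by smallest p, members called against the list's majority, and Furin, Reck, Bsg, Cd44, Plau, Adam17, Fos, Jun and Nfatc1; marker genes were named by level, at most 4 a list. Nearest genes needed a mean log2 CPM of at least 3. Tmem198b, as an overlapping gene, and Ctsz, Fosl1, Batf and Sp7 were named after their values were seen. A gene that the naming rule selects is not reported here. The dendritic list (159 and 164 CPM in siControl, 18.4 and 16.1 in siHells) and the lymphoid list (78.5 and 73.2 against 31.5 and 32.2 CPM) were also summed. Alternatives were other scalings, filters and tests (DESeq2 1.42.0, limma 3.58.1), a replicate block, each library left out, a stricter threshold and a test against a 1.5-fold change.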

Additional observations from a re-analysis of the deposited data

How the results depend on the processing

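All 9 genes kept their direction under every alternative run, and all 9 were called under each except the test against a 1.5-fold change and the fit without siControl replicate 1, where Timp1 was not called. Against a 1.5-fold change, 1 of the 9 genes was higher and 4 lower, and 1261 of all genes were higher and 1096 lower, since that test asks for more than a difference from 0. Leaving out each library in turn, 6 to 7 of the 9 genes were lower and 2 higher in each. The near-even split over all genes moved with the scaling. It was 4541 higher and 4612 lower with TMM, 4163 and 4979 with upper-quartile scaling, and 3773 and 5508 with library totals, where 40.7% of calls were higher in place of 49.6%. Over all genes the fits without a library gave 3796 to 4442 higher and 3999 to 4442 lower.

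The Mmp sum in siHells over siControl was 0.166, and 0.167 with DESeq2 size factors, 0.163 with upper-quartile scaling, 0.158 with library totals, 0.167 with the longest transcript and 0.732 without Mmp9. The Timp sum ratio was 0.825, 0.807 with upper-quartile scaling and 0.784 with library totals. The relative Mmp to Timp ratio was 0.202, and 0.887 without Mmp9. Both values without Mmp9 use the length of all exons, and their values with the longest transcript are not given here.

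Log2 fold changes near 0 changed sign for Mmp11 without siControl replicate 2 (-0.0069) and without siHells replicate 2 (-0.0593), against 0.526 at most, without siControl replicate 1, and for Mmp16 without siHells replicate 2 (-0.0131); neither was called. Against a 1.5-fold change 8 of the 21 ADAM and ADAMTS genes were higher, and the edgeR test then called none of the 3 that fell. Under the DESeq2 Wald test Mmp23 and Mmp28 were not called (adjusted p = 0.0621 and 0.0842).

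Same-numbered libraries are tied by nothing in the labels, and their deviations had a correlation of 0.0499 across genes. With the replicate block 4502 genes were higher and 4586 lower, and 2 and 7 of the 9 genes. Counts of 10 stand for 0.188 CPM, which limits Mmp15, Mmp17, Mmp25 and Mmp28.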
